A study of Mus musculus with 12 samples.

Results

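The genes described here are 32 chaperones, folding enzymes, stress sensors and quality-control factors of the endoplasmic reticulum (ER) and of its stress response, the unfolded protein response. They were chosen by name, and 31 of the 32 were measured among the 18820 genes with a probe set of their own. The exception was Pdia4, whose probe set carries the symbol of another gene as well and was not used here. RNA came from 6 male C57BL/6 mice aged 7 to 8 weeks and kept on standard chow. In 3 JNKΔhepa mice Jnk1 was deleted by Albf-Cre, a Cre recombinase driven by the albumin promoter with alpha-fetoprotein enhancer elements, and Jnk2 was deleted in every cell of the animal (Jnk2-/-). The 3 WT mice were male littermates with floxed Jnk1 and intact Jnk2 (Jnk1f/f Jnk2+/+); per the labels they carry the floxed allele, and no group holds Cre or the Jnk2 deletion alone. Each mouse gave a whole liver and a sample of primary hepatocytes, so there were 4 groups of 3 arrays: JNKΔhepa liver, WT liver, JNKΔhepa hepatocytes and WT hepatocytes.

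The ER folds and modifies secreted and membrane proteins, and a hepatocyte makes plasma proteins in bulk. Unfolded protein draws the chaperone BiP (gene Hspa5) away from 3 sensors in the ER membrane: ATF6 is cut to free a transcription factor, IRE1 (gene Ern1) splices Xbp1 mRNA to yield another, and PERK (gene Eif2ak3) slows translation and favours ATF4. ATF6 and spliced XBP1 then switch on chaperones, disulfide enzymes and the machinery of ER-associated degradation (ERAD), which pulls misfolded proteins back to the cytosol. IRE1 is also known to recruit TRAF2 and thereby activate JNK, the kinases encoded by Mapk8 (Jnk1) and Mapk9 (Jnk2).

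The best-known promoter element for this response is the ER stress element (ERSE), bound by NF-Y and by ATF6 or XBP1. RefSeq promoters (build GRCm38.p6, from 250 bases before to 50 after each start site, 300 bases in all) were found for 28 of the 32 genes; Atf6, Manf, Hyou1 and Derl1 had no entry. Searched on both strands, the ERSE, CCAAT and CCACG with 9 bases of any kind between them, was present in 10 of the 28 genes (35.7%) and in 0.119% of all 32851 promoters of that length. Counted by gene, it was present in 37 of all 27025 genes with a promoter. The members were chosen by name for their part in this response, so these shares describe them and are no test. The variant ERSE-II, ATTGG and CCACG with 1 base of any kind between them, was present in Herpud1 and Dnajb11 (2 genes) and in 0.0365% of all promoters. The core of the UPR element, TGACGTGG, was present in Sec24d alone and in 0.676% of all promoters. No pair of these matches overlapped. The whole promoter is shown for Hspa5, which encodes BiP, and for Creld2 and Derl3, whose readings span a wide range over the arrays, 5′ to 3′ on the gene's strand, with the fixed letters of the ERSE in capitals.

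Hspa5, chr2:34771840-34772139, plus strand: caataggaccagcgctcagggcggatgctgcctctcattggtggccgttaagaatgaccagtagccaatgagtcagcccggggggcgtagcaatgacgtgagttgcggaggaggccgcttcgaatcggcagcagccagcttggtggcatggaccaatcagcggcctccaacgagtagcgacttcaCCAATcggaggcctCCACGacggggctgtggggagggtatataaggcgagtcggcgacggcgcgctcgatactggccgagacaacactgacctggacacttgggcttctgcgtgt
Creld2, chr15:88819396-88819695, plus strand: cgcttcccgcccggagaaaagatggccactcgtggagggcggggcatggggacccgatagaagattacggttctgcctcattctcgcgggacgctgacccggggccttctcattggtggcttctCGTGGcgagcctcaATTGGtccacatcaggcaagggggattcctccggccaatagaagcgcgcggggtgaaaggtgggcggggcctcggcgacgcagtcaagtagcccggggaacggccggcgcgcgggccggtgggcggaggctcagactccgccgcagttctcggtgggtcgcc
Derl3, chr10:75893148-75893447, plus strand: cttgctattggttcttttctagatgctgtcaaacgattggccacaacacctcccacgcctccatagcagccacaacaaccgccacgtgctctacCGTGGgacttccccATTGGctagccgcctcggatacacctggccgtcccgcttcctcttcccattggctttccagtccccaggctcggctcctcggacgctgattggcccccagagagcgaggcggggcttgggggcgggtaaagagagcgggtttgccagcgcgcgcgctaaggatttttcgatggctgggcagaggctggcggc

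The ERSE runs in the gene's own direction in Hspa5, from base -65 to -47 before the start site, and in the opposite direction in Creld2 (-126 to -108) and Derl3 (-156 to -138). Shorter windows show the match, with 20 bases on each side, in genes that passed as higher in hepatocytes than in liver in the tissue comparison below. These are the ERSE in Pdia6, Dnajc3 and Calr (Calr in the opposite direction), and ERSE-II in Herpud1 and Dnajb11. Dnajc3 passed in JNKΔhepa mice alone, and the direction rests on the scaling given below. Sec61b, Sdf2l1 and Pdia3 also passed as higher, Pdia3 in JNKΔhepa mice alone, and had no match. Derl3, shown above, passed as higher in JNKΔhepa mice alone, as did Manf, which had no promoter entry. The other genes with an ERSE, namely Hspa5, Hsp90b1, Canx, Creld2, Ero1b and Syvn1, did not pass, and neither did Sec24d. A link between motif and tissue difference was not tested.

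Pdia6, chr12:17266471-17266529, plus strand: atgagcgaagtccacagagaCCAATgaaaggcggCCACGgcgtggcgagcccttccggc
Dnajc3, chr14:118937807-118937865, plus strand: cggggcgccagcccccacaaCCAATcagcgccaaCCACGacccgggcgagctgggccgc
Calr, chr8:84847055-84847113, minus strand: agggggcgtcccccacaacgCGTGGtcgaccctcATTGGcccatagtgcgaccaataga
Herpud1, chr8:94386357-94386407, plus strand: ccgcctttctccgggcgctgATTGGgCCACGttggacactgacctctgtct
Dnajb11, chr16:22857832-22857882, plus strand: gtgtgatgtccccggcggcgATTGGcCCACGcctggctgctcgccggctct

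The other matches to the ERSE lay in Hsp90b1 (a pair of matches, from -212 and from -107), Canx, Ero1b and Syvn1. A match is a description of these letters and not evidence that a factor binds there.

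**Figure D1:**
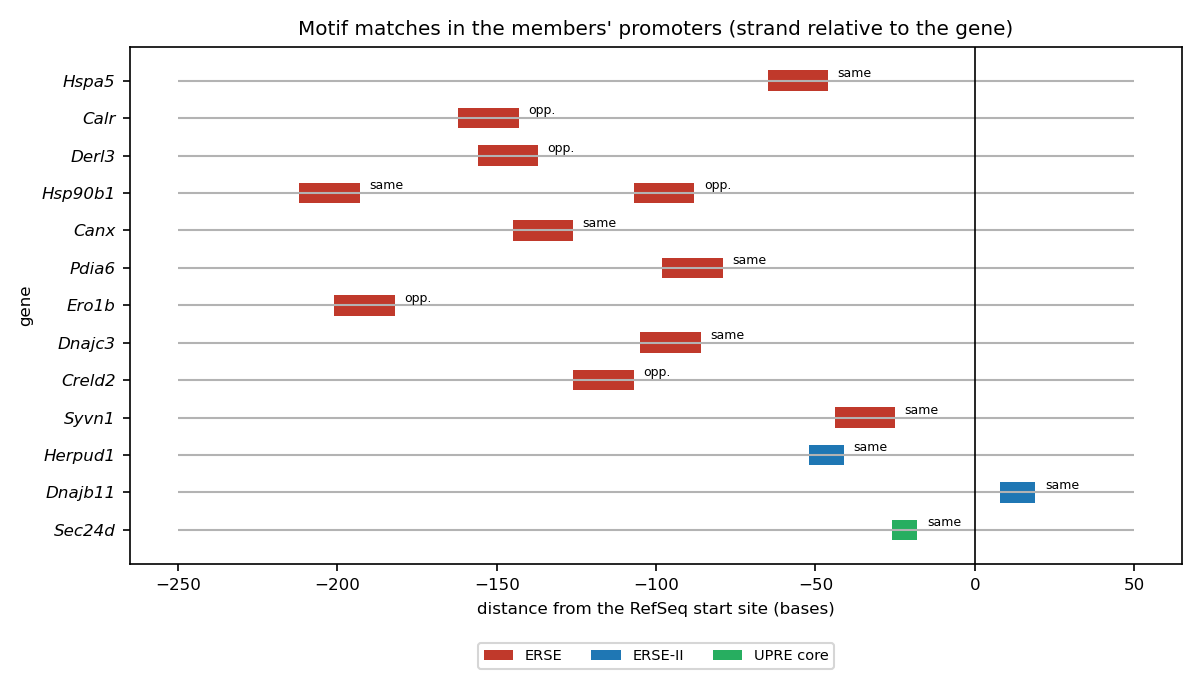
Positions of the motif matches in the promoters of the 13 genes that hold one, in bases from the RefSeq start site; red bars are ERSE, blue bars ERSE-II and the green bar the UPR element core, and the label gives the strand relative to the gene. All ERSE matches lie between base -212 and base -26, and the match in Dnajb11 lies after the start site.

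Levels of single genes are the deposited log2 intensities unless another scale is named. Summed marker levels are the log2 of the summed linear values of a list, after quantile normalisation over all 12 arrays. Mapk9 (Jnk2), deleted in every cell, fell below the array median in JNKΔhepa samples: it read 2.33 to 3.02 in JNKΔhepa livers, against 8.59 to 8.69 in WT livers, and 2.29 to 2.62 in JNKΔhepa hepatocytes, against 7.74 to 8.10 in WT hepatocytes. Mapk8 read 5.93 to 6.07 in JNKΔhepa livers, against 6.37 to 6.40 in WT livers, and 4.95 to 5.01 in JNKΔhepa hepatocytes, against 5.51 to 5.66 in WT hepatocytes. It was lower on every JNKΔhepa array but stayed above the array median, and whether its probe set covers the deleted part of the gene is not known here, so it is no check of the Jnk1 deletion. All 8 hepatocyte markers lay above the array median on all 12 arrays, with a summed level of 15.26 to 15.33. Correlations between arrays of a group were 0.987 to 0.993.

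One array stood apart for the ER genes, JNKΔhepa hepatocyte replicate 1. It read at least 0.5 above both other JNKΔhepa hepatocyte arrays in 7 of the 31 genes (Hspa5, Creld2, Manf, Hyou1, Syvn1, Ero1b and Sec24d) and at least 0.5 below both in Derl3, while the same gap upward was seen in 1.76% of all genes and downward in 1.32%. No other array did so in more than 2 of the 31 genes, and the liver of that mouse did so in 0. Its summed Kupffer cell level was 9.14, against 8.77 and 8.56 on the other JNKΔhepa hepatocyte arrays and 9.12 to 9.90 on WT hepatocyte arrays. Its endothelial level was 10.61, against 10.18 and 10.12, and 10.52 to 10.91 in WT hepatocytes. Its stellate level was 9.08, against 8.59 and 8.61, and 9.14 to 9.52 in WT hepatocytes. On these lists JNKΔhepa replicates 2 and 3 lay below every WT hepatocyte array. Its plasma cell level was 9.23, against 8.81 and 8.78, and its lymphocyte level 5.96, against 5.74 and 5.72. In each of these lists 7 of 8 genes lay below the array median on every hepatocyte array, so the sums say little about those cells. The plasma cell level was 8.78 to 9.26 over all hepatocyte arrays, against 8.76 to 8.93 over all livers. The part of other cells in the gap was not tested. Genotype differences in hepatocytes are therefore given below also without that array.

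**Figure D2:**
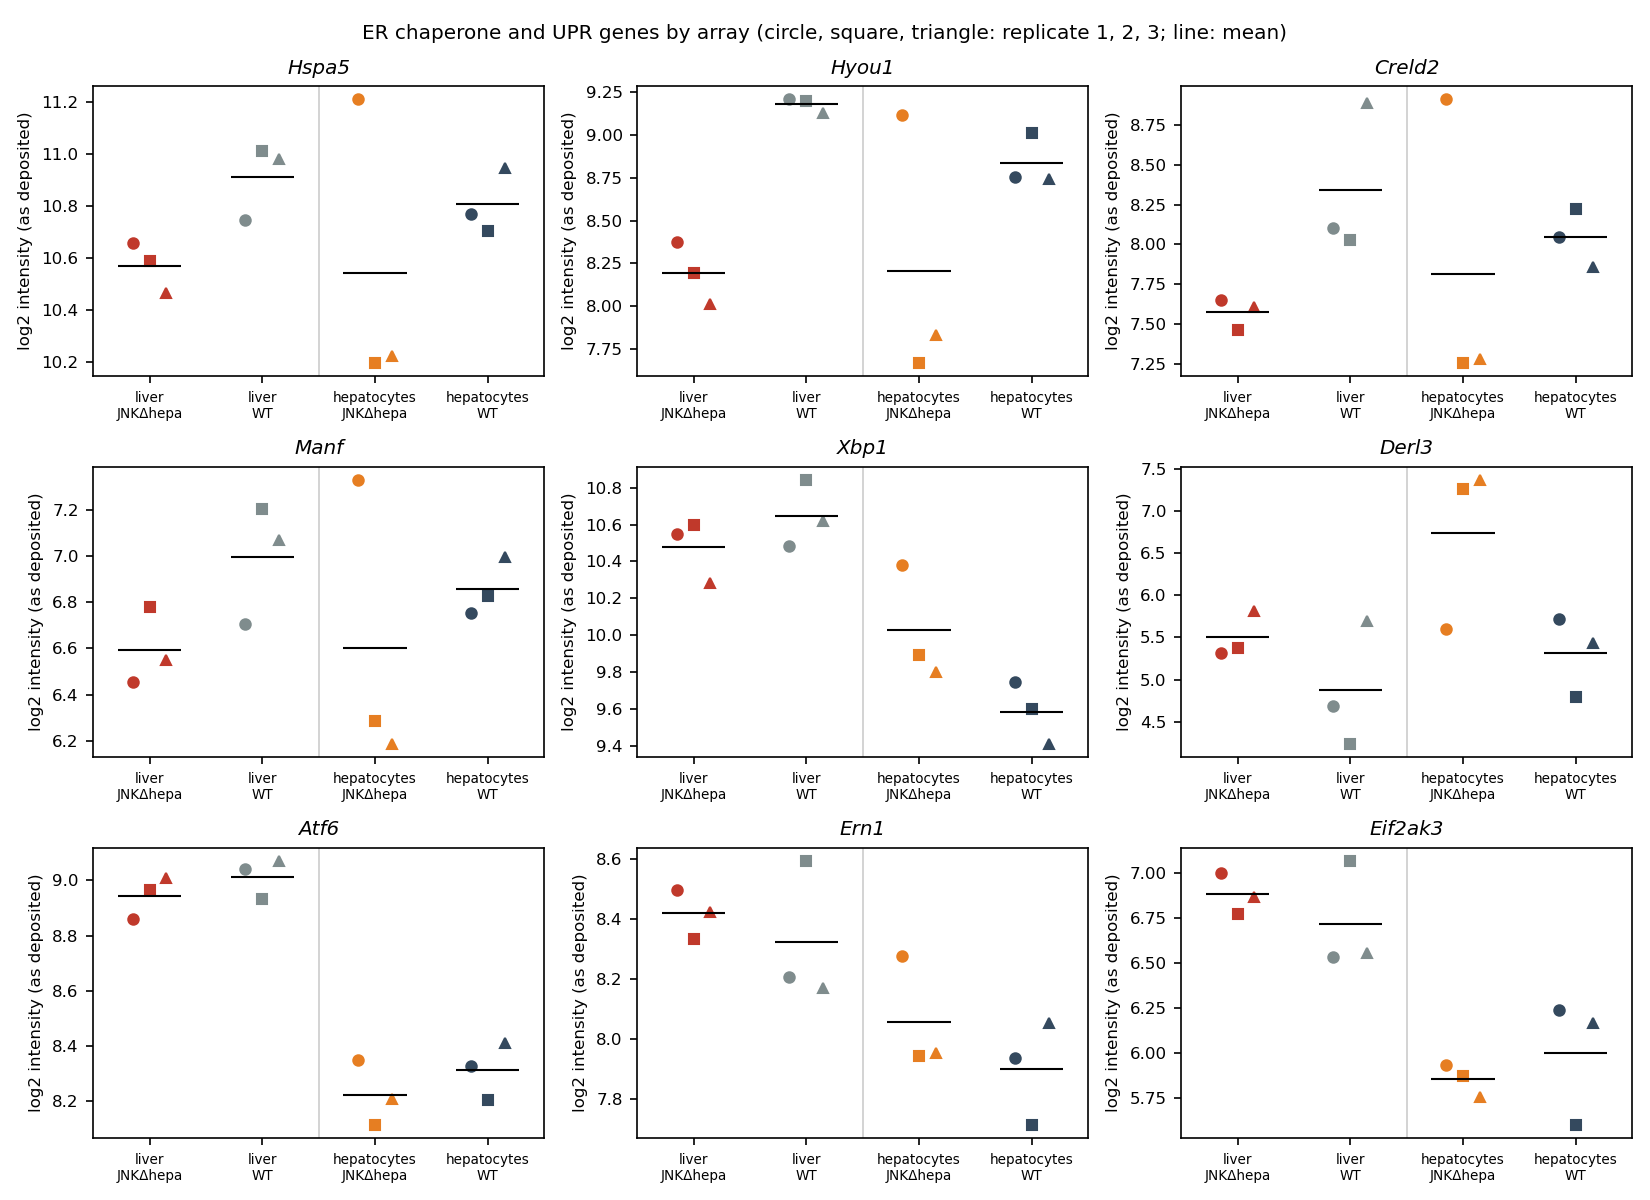
Deposited log2 intensity (y axis) of 9 of the genes on each of the 12 arrays, by group (x axis), with replicates 1, 2 and 3 as circle, square and triangle and the group mean as a line. In Hspa5, Hyou1, Creld2 and Manf the circle of the JNKΔhepa hepatocytes lies above all 3 WT hepatocyte arrays, and the square and triangle lie below them.

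Whether loss of JNK changes these genes was asked in each tissue by comparing JNKΔhepa with WT. In liver, 0 of the 31 genes passed the test (limma over all 12 arrays, Benjamini-Hochberg adjusted p under 0.05 over all 18820 genes), where 0.925% of all genes passed; 3 of the 31 had an unadjusted p under 0.05. In hepatocytes 0 of the 31 passed, where 0.84% of all genes passed, and again 3 had an unadjusted p under 0.05. The median log2 difference of the 31 genes, JNKΔhepa minus WT, was -0.08 in liver (0.02 over all genes), with 22 genes below 0, and -0.01 in hepatocytes (0.00 over all genes), with 17 below 0. All 3 JNKΔhepa liver arrays lay below all 3 WT liver arrays in 6 of the 31 genes (19.4%; 7.57% of all genes), namely Hyou1, Ssr1, Pdia3, Creld2, Hspa5 and Dnajb11, and above them in Dnajc10, Herpud1 and Derl1 (9.68%; 12.9% of all genes). In hepatocytes the arrays were apart in Calr (lower; 3.23%, 7.32% of all genes) and in Xbp1 and Pdia3 (higher; 6.45%, 7.36% of all genes). The 2 tissues came from the same mice and the fit shares 1 estimate of the spread. Markers of some other liver cells differed with genotype in hepatocytes in their medians, by -0.76 in 8 Kupffer cell genes, -0.49 in 8 endothelial genes and -0.34 in 8 stellate genes. In liver these medians were -0.07, 0.11 and -0.14, and 0 of these 24 genes passed the test in either tissue. Medians of lymphocyte, cholangiocyte and plasma cell genes were 0.00, 0.06 and -0.17 in hepatocytes, and -0.07, -0.11 and 0.03 in liver. The part of these cells in the values of the 31 genes was not tested.

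Among the sensors, Atf6 read 8.86, 8.97 and 9.01 on the JNKΔhepa arrays, against 9.04, 8.93 and 9.07 on the WT arrays in liver. In hepatocytes it read 8.35, 8.11 and 8.21 on the JNKΔhepa arrays, against 8.33, 8.20 and 8.41 on the WT arrays. The groups overlapped in both tissues, with log2 differences of -0.07 (95% CI -0.27 to 0.13) in liver and -0.09 (-0.29 to 0.11) in hepatocytes.

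Ern1, which encodes IRE1, read 8.50, 8.33 and 8.42 on the JNKΔhepa arrays, against 8.21, 8.59 and 8.17 on the WT arrays in liver. In hepatocytes it read 8.28, 7.94 and 7.96 on the JNKΔhepa arrays, against 7.94, 7.71 and 8.05 on the WT arrays. The groups overlapped, and the differences were 0.09 (95% CI -0.19 to 0.38) and 0.16 (-0.13 to 0.44).

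Eif2ak3, which encodes PERK, read 7.00, 6.77 and 6.87 on the JNKΔhepa arrays, against 6.53, 7.07 and 6.56 on the WT arrays in liver. In hepatocytes it read 5.94, 5.88 and 5.76 on the JNKΔhepa arrays, against 6.24, 5.60 and 6.17 on the WT arrays. WT arrays spread over a wider range than JNKΔhepa arrays in both tissues, and the differences were 0.16 (95% CI -0.21 to 0.53) and -0.15 (-0.52 to 0.22).

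Xbp1, the transcription factor whose mRNA IRE1 splices, read 10.55, 10.60 and 10.28 on the JNKΔhepa arrays, against 10.48, 10.84 and 10.62 on the WT arrays in liver. Hepatocytes gave values of 10.38, 9.89 and 9.80 on the JNKΔhepa arrays, against 9.75, 9.60 and 9.41 on the WT arrays. The liver groups overlapped, whereas every JNKΔhepa hepatocyte array lay above every WT hepatocyte array. The difference was -0.17 (SE 0.155, adjusted p = 0.74) in liver and 0.44 (SE 0.155, 95% CI 0.11 to 0.77, limma adjusted p = 0.246) in hepatocytes, and neither passed. Without JNKΔhepa hepatocyte replicate 1 the hepatocyte difference was 0.26 (adjusted p = 0.444). The probe set measures total Xbp1 mRNA as far as its symbol says; spliced and unspliced forms were not told apart here.

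Among the lumenal chaperones, Hyou1, an HSP70-like chaperone that acts as exchange factor for BiP, differed most in liver. It read 8.38, 8.20 and 8.01 on the JNKΔhepa arrays, against 9.21, 9.20 and 9.13 on the WT arrays. The groups lay well apart, 1.98-fold lower in JNKΔhepa livers, with a log2 difference of -0.98 (SE 0.276, 95% CI -1.58 to -0.39) and a limma adjusted p of 0.132. Its hepatocyte values were 9.11, 7.67 and 7.83 on the JNKΔhepa arrays, against 8.75, 9.01 and 8.74 on the WT arrays. Replicates 2 and 3 lay below all WT hepatocyte arrays and replicate 1 above them, so the mean difference was -0.63 (95% CI -1.23 to -0.03, adjusted p = 0.37).

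The SD of Hyou1 was 0.792 in JNKΔhepa hepatocytes, against 0.153 in WT hepatocytes, 0.182 in JNKΔhepa livers and 0.0449 in WT livers, and the fit over all arrays gives every comparison the same spread. Fitted on the 6 liver arrays alone, Hyou1 fell by 0.98 in JNKΔhepa livers (SE 0.102, limma adjusted p = 0.0103) and was the single member of the 31 to pass, where 0.675% of all genes passed. It also passed in liver with array weights (limma adjusted p = 0.0449). With every array but JNKΔhepa hepatocyte replicate 1 the difference stayed at -0.98 and the adjusted p was 0.00133. That fit was chosen after seeing Hyou1 and other members on that array, and it narrows the shared spread, so it is no separate evidence. Over the 16 alternatives, that fit among them, the adjusted p of Hyou1 in liver ran from 0.00133 to 0.314, with log2 differences of -1.07 to -0.89.

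Hspa5, which encodes BiP, the master chaperone of the ER, read 10.66, 10.59 and 10.46 on the JNKΔhepa arrays, against 10.74, 11.01 and 10.98 on the WT arrays in liver. The hepatocyte arrays gave 11.21, 10.20 and 10.22 on the JNKΔhepa arrays, against 10.77, 10.70 and 10.95 on the WT arrays. The liver groups did not overlap and the hepatocyte groups did, since replicate 1 of the JNKΔhepa hepatocytes was the highest of the 6. The differences were -0.34 (SE 0.211, limma adjusted p = 0.564) and -0.26 (SE 0.211, adjusted p = 0.684). Hsp90b1, which encodes the HSP90-type chaperone GRP94, differed by -0.13 (95% CI -0.39 to 0.12) in liver and 0.02 (-0.23 to 0.27) in hepatocytes.

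Creld2, a lumenal protein with thioredoxin-like activity that stress induces, read 7.65, 7.46 and 7.61 on the JNKΔhepa arrays, against 8.10, 8.03 and 8.89 on the WT arrays in liver. The groups did not overlap, but WT replicate 3 lay far above the other WT livers, and the difference of -0.77 (SE 0.356) had a limma adjusted p of 0.403. Hepatocyte values were 8.91, 7.25 and 7.28 on the JNKΔhepa arrays, against 8.05, 8.22 and 7.86 on the WT arrays. Manf, a stress-induced ER protein that is also secreted, read 6.45, 6.78 and 6.55 on the JNKΔhepa arrays, against 6.71, 7.20 and 7.07 on the WT arrays in liver, a difference of -0.40 (SE 0.241, adjusted p = 0.549) with overlapping groups. On the hepatocyte arrays the values were 7.33, 6.29 and 6.19 on the JNKΔhepa arrays, against 6.75, 6.83 and 7.00 on the WT arrays, with replicate 1 again the highest and replicates 2 and 3 the lowest. Sdf2l1, a cofactor that keeps BiP clients soluble, differed by -0.14 (95% CI -0.52 to 0.25) in liver and 0.29 (-0.09 to 0.68) in hepatocytes.

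With JNKΔhepa hepatocyte replicate 1 left out, 3 of the 31 genes passed in hepatocytes, where 1.67% of all genes passed. Hyou1 fell by 1.09 on the log2 scale in JNKΔhepa hepatocytes (SE 0.122, 2.12-fold, limma adjusted p = 0.00149), and Hspa5 fell by 0.60 (SE 0.111, 1.51-fold, adjusted p = 0.0229). Derl3, a channel-forming derlin of ERAD, rose by 1.99 (SE 0.356, 3.96-fold, adjusted p = 0.0197). Manf (-0.62, adjusted p = 0.0604) and Creld2 (-0.78, adjusted p = 0.0994) did not pass, and neither did Sec24d (-0.44, adjusted p = 0.133), Syvn1 (-0.38, adjusted p = 0.247) and Ero1b (-0.37, adjusted p = 0.167). Xbp1 is given above, and the other 22 genes differed by -0.35 to 0.27 with adjusted p of 0.114 or above. The 2 remaining JNKΔhepa arrays lay below all WT arrays in 15 of the 31 genes (15% of all genes) and above them in Xbp1, Pdia3 and Derl3 (3 genes; 13.1% of all genes). That array was singled out on the values of these same genes, so these counts describe the 5 arrays and are no separate evidence of a difference. Over the 16 alternatives the hepatocyte adjusted p ran from 0.00149 to 0.695 for Hyou1, from 0.0229 to 0.937 for Hspa5 and from 0.0162 to 0.453 for Derl3.

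**Figure D3:**
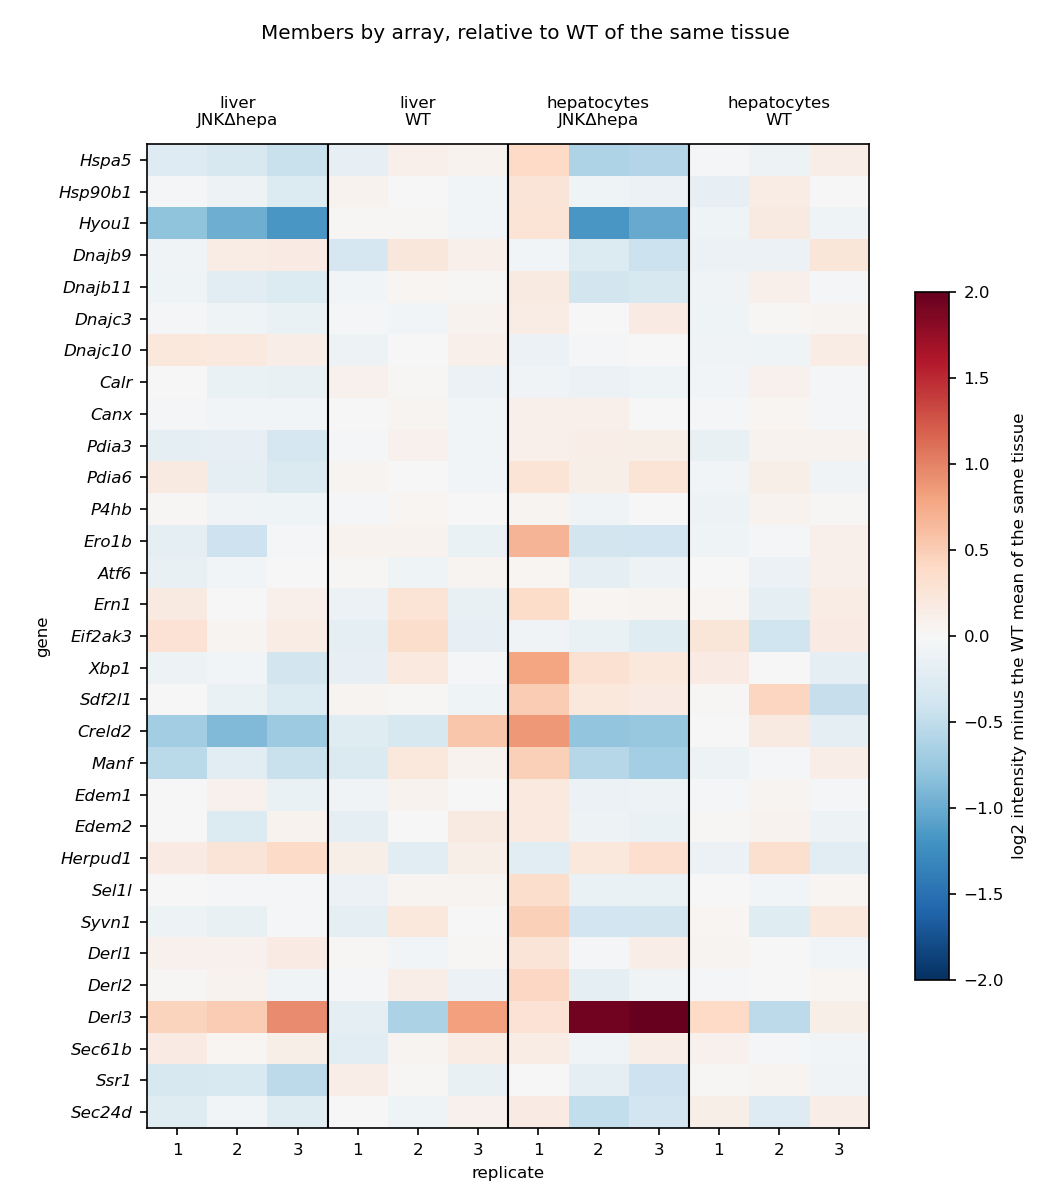
Log2 intensity of the 31 genes (rows, ordered by role) on each array (columns) minus the WT mean of the same tissue, with colours limited at 2 and -2; red is above and blue below the WT mean. Hyou1 and Creld2 are blue on all JNKΔhepa liver arrays, and the JNKΔhepa hepatocyte column of replicate 1 is red where those of replicates 2 and 3 are blue in Hspa5, Hyou1, Ero1b, Creld2, Manf and Syvn1.

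Of the 4 J proteins, which hand clients to BiP or drive its ATPase, Dnajb11 had liver arrays apart (7.64, 7.52 and 7.45 on the JNKΔhepa arrays, against 7.67, 7.77 and 7.74 on the WT arrays). All JNKΔhepa livers were lower, by 0.19 on average (SE 0.126, limma adjusted p = 0.599). Dnajc10, a J protein with reductase domains that serves ERAD, read 6.70, 6.70 and 6.64 on the JNKΔhepa arrays, against 6.41, 6.49 and 6.61 on the WT arrays in liver. All JNKΔhepa livers were higher, and the difference of 0.18 (95% CI -0.01 to 0.37) had an adjusted p of 0.445. Dnajb9 and Dnajc3 (which encodes p58IPK, an inhibitor of PERK signalling) overlapped between genotypes in both tissues, with differences of -0.25 to 0.10.

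The lectin chaperones Calr and Canx hold glycoproteins during folding and differed little, by -0.10 to 0.07 over both tissues. Calr read 10.96, 10.92 and 10.95 on the JNKΔhepa arrays, against 10.98, 11.12 and 10.99 on the WT arrays in hepatocytes, where every JNKΔhepa array was lower, by 0.09 (95% CI -0.27 to 0.09). Canx lies on chromosome 11 with Mapk9, with 12 RefSeq genes between them (8 protein-coding); it differed by -0.05 in liver and 0.07 in hepatocytes.

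Pdia3, the disulfide isomerase that works with calreticulin and calnexin, read 10.46, 10.47 and 10.30 on the JNKΔhepa arrays, against 10.60, 10.73 and 10.59 on the WT arrays in liver. Hepatocytes gave values of 10.48, 10.52 and 10.51 on the JNKΔhepa arrays, against 10.24, 10.45 and 10.45 on the WT arrays. JNKΔhepa arrays lay below WT arrays in liver and above them in hepatocytes, with differences of -0.23 (SE 0.0874, limma adjusted p = 0.294) and 0.12 (SE 0.0874, adjusted p = 0.653). Pdia6, another disulfide isomerase, read 9.09, 8.93 and 9.10 on the JNKΔhepa arrays, against 8.77, 8.95 and 8.75 on the WT arrays in hepatocytes, where the groups overlapped and the difference was 0.22 (95% CI -0.03 to 0.47, adjusted p = 0.483). P4hb, which encodes protein disulfide isomerase, differed by -0.05 and -0.01. Ero1b, the oxidase that recharges these isomerases, differed by -0.21 in liver and -0.02 in hepatocytes, where replicate 1 of the JNKΔhepa arrays lay 1.06 above the mean of the other two; without that array the difference was -0.37.

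Derl3 was the ERAD gene with the widest spread. It read 5.31, 5.38 and 5.82 on the JNKΔhepa arrays, against 4.69, 4.24 and 5.70 on the WT arrays in liver, with overlapping groups and a difference of 0.63 (SE 0.442, limma adjusted p = 0.632). Its hepatocyte values were 5.61, 7.25 and 7.36 on the JNKΔhepa arrays, against 5.72, 4.80 and 5.44 on the WT arrays. JNKΔhepa replicates 2 and 3 lay above every WT array while replicate 1 lay within them, and the difference was 1.42 (SE 0.442, 95% CI 0.46 to 2.37, adjusted p = 0.182). Herpud1, a membrane protein that gathers the ERAD complex, read 10.43, 10.52 and 10.66 on the JNKΔhepa arrays, against 10.39, 10.04 and 10.39 on the WT arrays in liver. JNKΔhepa livers were all higher, by 0.27 (95% CI -0.09 to 0.62, adjusted p = 0.563). The retrotranslocation derlin Derl1 was also higher on every JNKΔhepa liver array, by 0.11 (95% CI -0.08 to 0.29). The other 5 ERAD genes (the mannose-trimming Edem1 and Edem2, the ligase Syvn1 with its partner Sel1l, and Derl2) differed by -0.10 to 0.05 over both tissues with all arrays. Without JNKΔhepa hepatocyte replicate 1 their hepatocyte differences were -0.38 for Syvn1, -0.14 for Sel1l, -0.13 for Derl2, -0.12 for Edem2 and -0.11 for Edem1. None of these passed (limma adjusted p = 0.247 to 0.772). Both remaining JNKΔhepa arrays lay below all WT arrays in each of them, as they did in 15% of all genes. Replicate 1 was singled out on values of the ER genes, Syvn1 among them. These differences are therefore no separate evidence of a fall.

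At the translocon and the exit sites, Ssr1, a subunit of the translocon-associated protein complex, read 9.10, 9.11 and 8.90 on the JNKΔhepa arrays, against 9.54, 9.43 and 9.27 on the WT arrays in liver. All JNKΔhepa livers were lower, by 0.38 (1.30-fold, SE 0.112, 95% CI -0.62 to -0.13), with a limma adjusted p of 0.156. The hepatocyte arrays gave 8.95, 8.77 and 8.54 on the JNKΔhepa arrays, against 8.98, 9.00 and 8.88 on the WT arrays, a difference of -0.20 (adjusted p = 0.518) with overlapping groups. Sec61b, a subunit of the translocation channel, and Sec24d, a cargo adaptor of COPII vesicles, overlapped between genotypes in both tissues, with differences of -0.24 to 0.11.

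**Figure D4:**
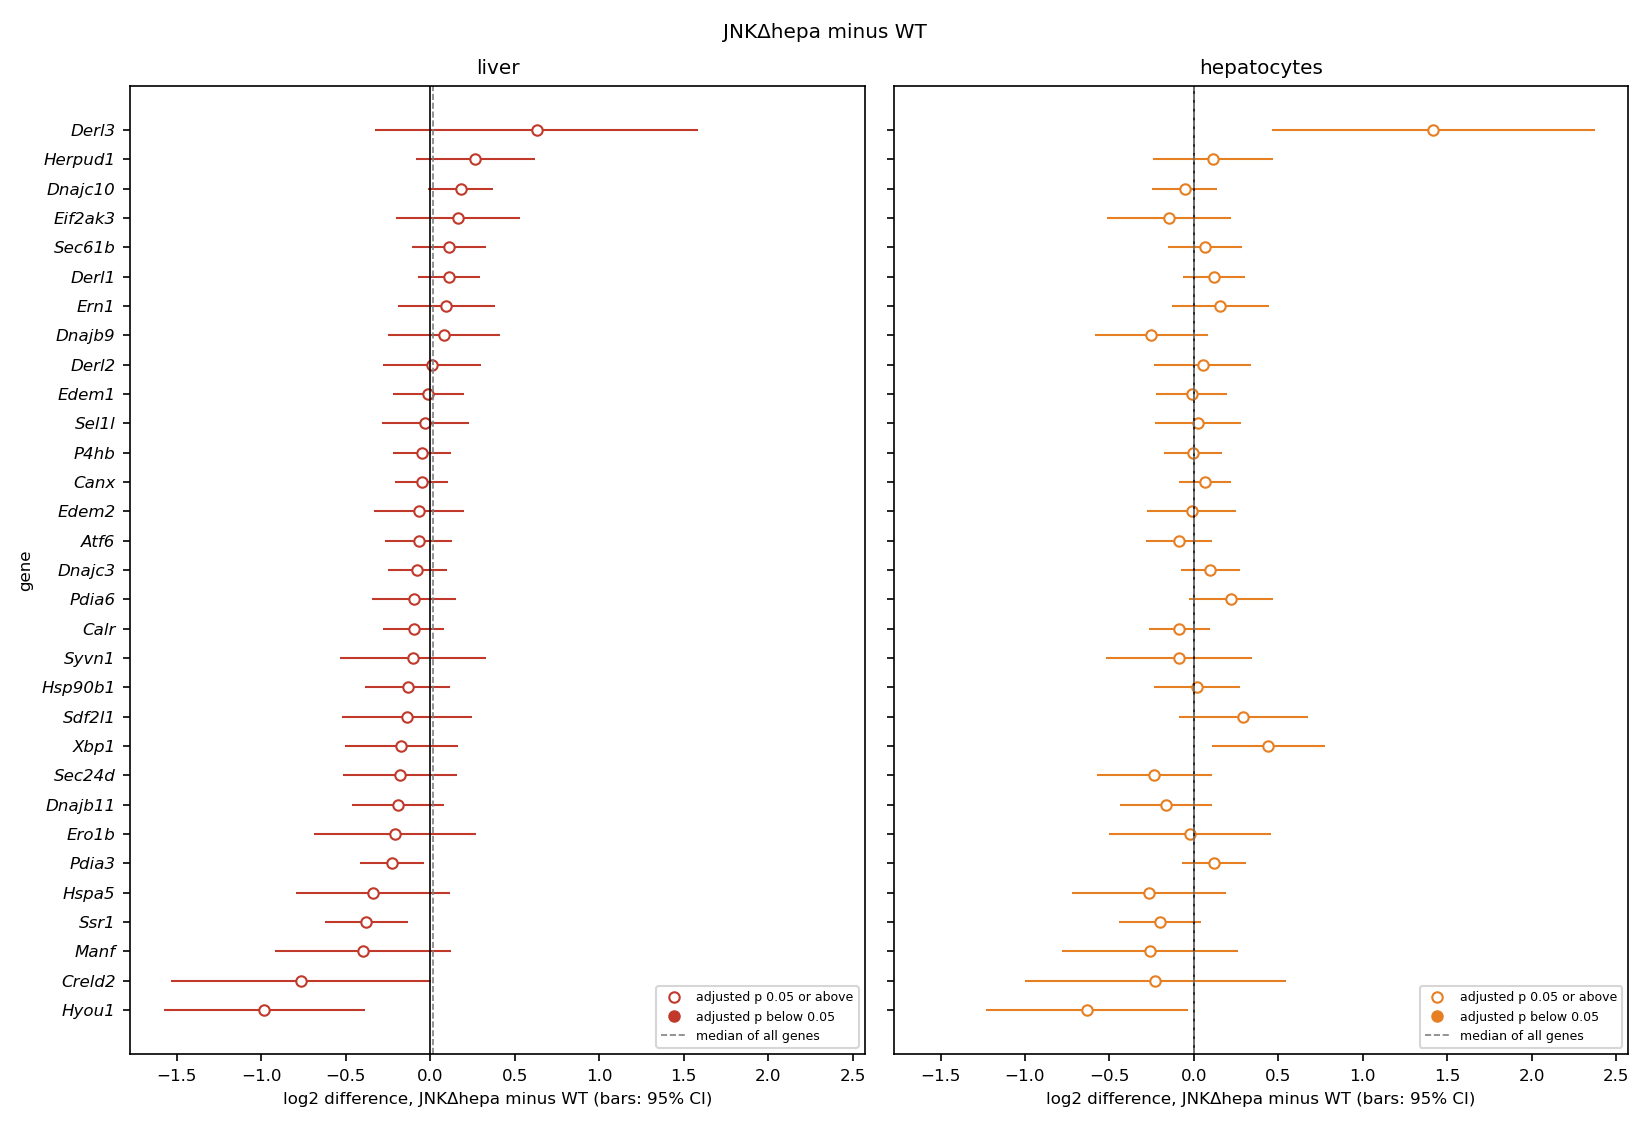
Log2 difference, JNKΔhepa minus WT (x axis; bars are 95% confidence intervals), of the 31 genes (rows, in the same order in both panels) in liver (left) and hepatocytes (right); open circles have an adjusted p of 0.05 or above, and the dashed line is the median of all genes. All 31 circles are open in both panels; Hyou1 and Creld2 lie lowest in liver and Derl3 highest in both.

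Whether the genotype difference itself differed between hepatocytes and liver was tested as an interaction, the difference in hepatocytes minus that in liver. Again 0 of the 31 genes passed (2 had an unadjusted p under 0.05), where 0.0106% of all genes passed. The smallest p-values were those of Xbp1 (0.61, SE 0.219, 95% CI 0.14 to 1.09, limma adjusted p = 0.596) and Pdia3 (0.34, SE 0.124, adjusted p = 0.596), both of which were lower on average in JNKΔhepa than WT livers and higher in JNKΔhepa than WT hepatocytes. Pdia6 (0.32), Dnajc10 (-0.23) and Sdf2l1 (0.43) came next. For Hyou1 the interaction was 0.35 (95% CI -0.49 to 1.19).

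The remaining comparison sets primary hepatocytes against whole liver of the same mice. Per the array medians (3.22 to 3.28 in hepatocytes, 4.09 to 4.12 in livers) the tissues appear to have been normalised apart, so all 12 arrays were first quantile-normalised together (the common scale), which puts the median gene difference at 0.01 in JNKΔhepa mice and 0.02 in WT mice. In bulk samples fewer cells of a type and less RNA per cell cannot be told apart. On the common scale 10 of the 31 genes were higher in hepatocytes of JNKΔhepa mice (14.3% of all genes were) and 0 were lower (15.6% of all genes were). In WT mice 6 of the 31 were higher (13.6% of all genes) and 1 was lower (14.8% of all genes). The median difference of the 31 genes was 0.26 in JNKΔhepa mice and 0.19 in WT mice. The direction rests on the scaling: as deposited, where all genes shift by -0.60 in JNKΔhepa mice and -0.58 in WT mice, 2 of the 31 were higher and 14 lower in JNKΔhepa mice (0.616% and 85.9% of all genes), and 0 higher and 16 lower in WT mice (0.6% and 85.6% of all genes). With each array centred on its median, 26 were higher and 0 lower in JNKΔhepa mice (50% and 10.4% of all genes), and 23 higher and 0 lower in WT mice (46.6% and 9.84% of all genes). Relative to the median of all genes on the deposited scale, 27 of the 31 lay above it in JNKΔhepa mice and 25 in WT mice. The gap between the tissues was smaller among bright probe sets, with upper deciles of 7.90 to 7.93 on hepatocyte arrays and 8.50 to 8.53 on liver arrays. All readings of the 31 genes lay above their array's median, and the share among equally bright genes was not computed, so these counts do not free the direction from the scaling.

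All 6 genes higher in WT hepatocytes (Sec61b, Herpud1, Dnajb11, Pdia6, Sdf2l1 and Calr) were also among the 10 of JNKΔhepa hepatocytes, of which they made 60%. On the common scale Sec61b read 6.59, 6.44 and 6.61 in JNKΔhepa hepatocytes, against 6.00, 5.88 and 5.94 in JNKΔhepa livers. It read 6.60, 6.51 and 6.42 in WT hepatocytes, against 5.70, 5.97 and 6.02 in WT livers. Every hepatocyte array was higher, by 0.61 (SE 0.099, limma adjusted p = 0.000615) and 0.62 (SE 0.099, adjusted p = 0.000646). The other probe sets of Sec61b gave 0.49 and 0.15 in JNKΔhepa mice and 0.42 and 0.21 in WT mice.

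Pdia6 read 9.34, 9.21 and 9.36 in JNKΔhepa hepatocytes, against 8.88, 8.49 and 8.39 in JNKΔhepa livers. It read 9.07, 9.19 and 9.02 in WT hepatocytes, against 8.76, 8.68 and 8.65 in WT livers. Hepatocyte arrays lay above liver arrays in both genotypes, by 0.72 (1.64-fold, SE 0.116, limma adjusted p = 0.000574) and 0.40 (1.32-fold, adjusted p = 0.0228). The WT call was lost without hepatocyte replicate 2 or liver replicate 2 or 3 (adjusted p = 0.0602 to 0.075).

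Sdf2l1 read 9.98, 9.72 and 9.67 in JNKΔhepa hepatocytes, against 8.92, 8.81 and 8.64 in JNKΔhepa livers. It read 9.55, 9.92 and 9.07 in WT hepatocytes, against 9.01, 8.95 and 8.84 in WT livers. The hepatocyte arrays were higher in both genotypes, by 1.00 (2.00-fold, SE 0.172, limma adjusted p = 0.000911) and 0.58 (1.49-fold, adjusted p = 0.0253), with a wide spread in WT hepatocytes. The WT call was lost without hepatocyte replicate 2 (0.37, adjusted p = 0.0912), and also without hepatocyte replicate 1 or liver replicate 2 or 3 (adjusted p = 0.0565 to 0.0912 over these 4 fits).

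Dnajb11 read 8.04, 7.56 and 7.58 in JNKΔhepa hepatocytes, against 7.30, 7.17 and 7.09 in JNKΔhepa livers. It read 7.86, 8.00 and 7.85 in WT hepatocytes, against 7.37, 7.46 and 7.43 in WT livers. Hepatocytes were higher by 0.54 (SE 0.121, limma adjusted p = 0.00498) and 0.48 (adjusted p = 0.0103), with no overlap.

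Herpud1 read 10.51, 10.90 and 11.04 in JNKΔhepa hepatocytes, against 10.19, 10.30 and 10.43 in JNKΔhepa livers. It read 10.64, 11.03 and 10.55 in WT hepatocytes, against 10.20, 9.81 and 10.17 in WT livers. All hepatocyte arrays were higher, by 0.51 (SE 0.16, limma adjusted p = 0.0303) and 0.68 (adjusted p = 0.00727). The JNKΔhepa call of Herpud1 was lost without hepatocyte replicate 2 or 3 or liver replicate 1 or 2 (adjusted p = 0.0756 to 0.117). Calr read 11.11, 11.05 and 11.12 in JNKΔhepa hepatocytes, against 10.93, 10.79 and 10.81 in JNKΔhepa livers, and 11.14, 11.28 and 11.17 in WT hepatocytes, against 11.06, 10.97 and 10.82 in WT livers. Its differences of 0.25 (adjusted p = 0.038) and 0.25 (adjusted p = 0.0447) did not pass with the mouse as a fixed block (adjusted p = 0.0677 and 0.0773) and passed with it as a random block (adjusted p = 0.0341 and 0.0402). Each was also lost without any 1 of the 6 arrays of its genotype other than liver replicate 1 (adjusted p = 0.0571 to 0.118 in JNKΔhepa mice and 0.0565 to 0.165 in WT mice).

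The other 4 genes passed in JNKΔhepa mice alone. None of them passed the interaction test above, which used the deposited values and does not show that the genotypes were alike. Pdia3 was among the members with the smallest p-values there. Pdia3 read 10.64, 10.67 and 10.69 in JNKΔhepa hepatocytes, against 10.23, 10.24 and 10.06 in JNKΔhepa livers, higher by 0.49 (SE 0.087, limma adjusted p = 0.00119). Dnajc3 read 9.96, 9.83 and 10.00 in JNKΔhepa hepatocytes, against 9.66, 9.58 and 9.55 in JNKΔhepa livers, higher by 0.33 (SE 0.08, adjusted p = 0.00728). Neither gene's groups overlapped. Derl3 read 5.95, 7.57 and 7.67 in JNKΔhepa hepatocytes, against 4.89, 4.94 and 5.41 in JNKΔhepa livers, higher by 1.98 (3.95-fold, SE 0.449, adjusted p = 0.00551). Manf read 7.61, 6.66 and 6.51 in JNKΔhepa hepatocytes, against 6.06, 6.41 and 6.16 in JNKΔhepa livers, higher by 0.71 (SE 0.232, adjusted p = 0.0346), which without hepatocyte replicate 1 was 0.37 (adjusted p = 0.084) and which was also lost without liver replicate 1 or 3 (adjusted p of 0.084 to 0.108 over these 3 fits). In WT mice the differences of these 4 genes were 0.15, 0.15, 1.20 and 0.51 (Pdia3, Dnajc3, Derl3, Manf). With the mouse as a fixed block Hyou1 (0.61, adjusted p = 0.0417) and Ero1b (0.59, adjusted p = 0.0463) also passed in JNKΔhepa mice and Derl3 (1.20, adjusted p = 0.0218) in WT mice. As a random block it left Hyou1 (adjusted p = 0.0952) and the WT difference of Derl3 (adjusted p = 0.0571) short of the threshold, and Ero1b passed (adjusted p = 0.049).

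Xbp1 was the gene that fell in WT hepatocytes. On the common scale it read 9.99, 9.84 and 9.68 in WT hepatocytes, against 10.31, 10.64 and 10.40 in WT livers. It read 10.56, 10.11 and 10.04 in JNKΔhepa hepatocytes, against 10.34, 10.40 and 10.04 in JNKΔhepa livers. The WT groups lay apart, with hepatocytes lower by 0.62 (1.54-fold, SE 0.15, limma adjusted p = 0.00858), and the JNKΔhepa groups overlapped, with a difference of -0.03 (95% CI -0.35 to 0.30). With each array centred on its median the WT difference was -0.23 (adjusted p = 0.233). The genes of the sensors did not pass in either genotype: Atf6 differed by -0.16 and -0.14, Ern1 by 0.24 and 0.18 and Eif2ak3 by -0.31 and -0.04 in JNKΔhepa and WT mice. Hspa5 differed by 0.35 (95% CI -0.09 to 0.80) in JNKΔhepa mice and 0.25 (-0.20 to 0.69) in WT mice. Markers of other liver cells fell in hepatocytes: 7 of 8 Kupffer cell genes, 8 of 8 endothelial genes and 8 of 8 stellate genes fell in each genotype, with median differences of -1.85, -1.61 and -1.84 in JNKΔhepa mice and -1.18, -1.08 and -1.63 in WT mice. The summed Kupffer level was 8.56 to 9.14 in JNKΔhepa hepatocytes, against 10.65 to 10.85 in JNKΔhepa livers, and 9.12 to 9.90 in WT hepatocytes, against 10.64 to 11.19 in WT livers; 0 or 1 of the 8 lay below the array median on any array. Of the 8 plasma cell genes 7 lay below the array median on every hepatocyte array and 5 or 6 on every liver array. Of the lymphocyte genes 7 of 8 fell in JNKΔhepa mice and 8 of 8 in WT mice, and of the cholangiocyte genes 3 of 5 fell and 1 rose in each. The part of these cells in the tissue differences was not tested.

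**Figure D5:**
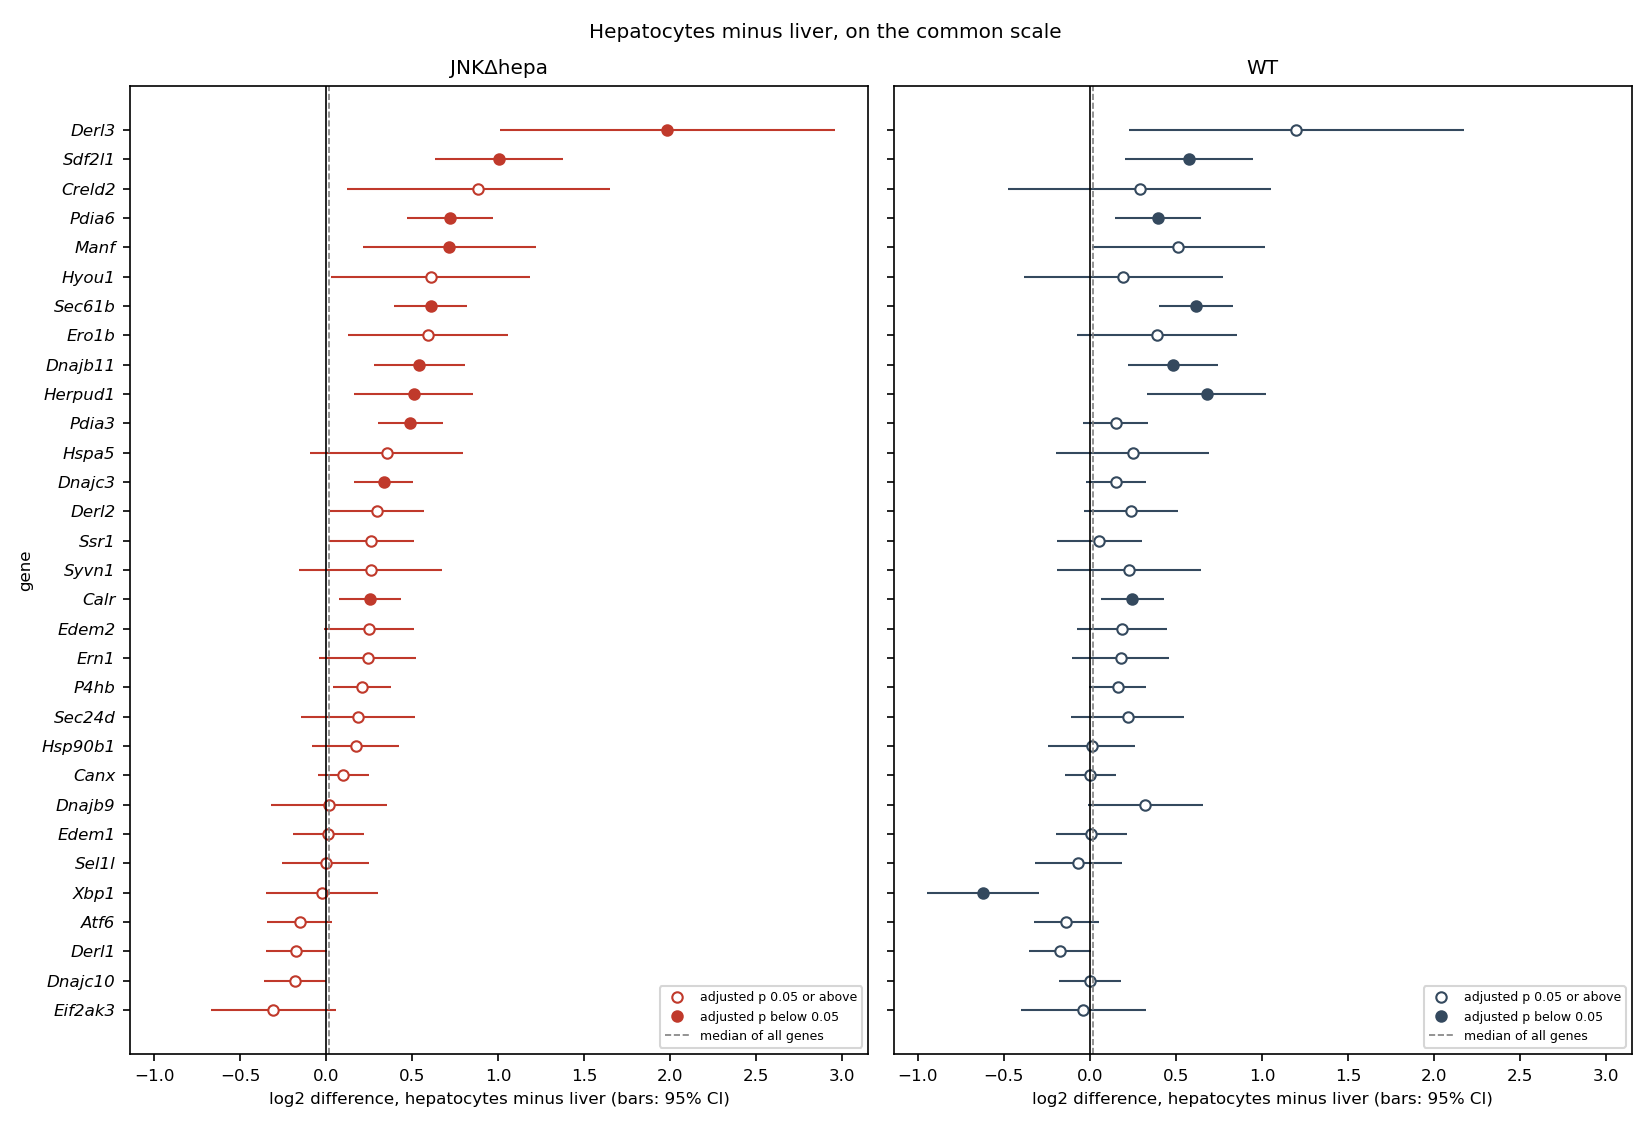
Log2 difference on the common scale, hepatocytes minus liver (x axis; bars are 95% confidence intervals), of the 31 genes (rows, same order in both panels) in JNKΔhepa mice (left) and WT mice (right); filled circles passed the test and the dashed line is the median of all genes. On the left 10 circles are filled, all above 0, and on the right 6 above 0 and Xbp1 below 0; the signs depend on the scaling given in the text.

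The wider pathway was followed in 6 lists of 147 further genes, 136 of them measured. For genotype, 0.925% of all genes passed in liver and 0.84% in hepatocytes, the shares to read these counts against. A single gene that passes does not stand for its list. In the PERK and ATF4 arm (15 of 18 measured) 1 gene rose in each tissue and 0 fell, with medians of 0.01 in liver and 0.17 in hepatocytes. It was Fgf21, a hepatic hormone that ATF4 induces, which read 4.15, 4.30 and 4.80 on the JNKΔhepa arrays, against 3.53, 3.59 and 3.82 on the WT arrays in liver. Hepatocyte values were 4.58, 4.92 and 4.61 on the JNKΔhepa arrays, against 3.99, 3.74 and 3.85 on the WT arrays. The groups did not overlap in either tissue, and it rose by 0.77 (SE 0.156, limma adjusted p = 0.0373) and 0.85 (SE 0.156, adjusted p = 0.0233). All WT livers read below their array median of 4.09, where the size of a change is not exact, and adjusted p ran from 0.0234 to 0.149 in liver and from 0.0179 to 0.112 in hepatocytes over 16 alternatives. In the translocation and N-glycosylation list (32 of 33 measured) Ostc, a subunit of the oligosaccharyltransferase, read 8.91, 8.48 and 8.63 on the JNKΔhepa arrays, against 9.26, 9.23 and 9.56 on the WT arrays in hepatocytes. It fell by 0.68 with no overlap (SE 0.122, limma adjusted p = 0.022; 0.00717 to 0.117 over 16 alternatives). In liver Ostc differed by -0.56 (adjusted p = 0.0506). In the lists of UPR regulators (16 of 20 measured), further folding factors (26 of 28), ERAD factors (23 of 24) and ER export factors (24 of 24), 0 genes passed in either tissue, with medians of -0.05 to 0.07.

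Between hepatocytes and liver on the common scale, 6 of the 15 genes of the PERK and ATF4 arm rose and 1 fell in JNKΔhepa mice, and 3 rose and 0 fell in WT mice. Fgf21 rose by 1.13 (limma adjusted p = 0.000194) in JNKΔhepa mice and 1.02 (adjusted p = 0.000498) in WT mice, and Atf3, a stress-induced repressor, by 1.75 (adjusted p = 0.00032) and 2.47 (adjusted p = 2.89e-05). Of the 26 folding factors 7 rose and 0 fell in JNKΔhepa mice and 4 rose and 2 fell in WT mice; they included Erp29, a PDI-like escort factor (0.89 and 0.74 in JNKΔhepa and WT mice), and Uggt1, the glucosyltransferase that tags unfolded glycoproteins (0.50 and 0.29). In the translocation and N-glycosylation list (32 genes) 8 rose and 2 fell in JNKΔhepa mice, and 7 rose and 1 fell in WT mice, among them the translocon-associated subunit Ssr2 (0.41 and 0.39) and the oligosaccharyltransferase subunit Rpn1 (0.41 and 0.39). Of the 24 ER export factors 4 rose and 1 fell in JNKΔhepa mice, and 0 rose and 1 fell in WT mice. Of the 23 ERAD factors 3 rose and 0 fell in JNKΔhepa mice, and 2 rose and 1 fell in WT mice. Of the 16 UPR regulators 1 rose and 3 fell in JNKΔhepa mice, and 2 rose and 3 fell in WT mice. These directions rest on the common scale as for the 31 genes, and the shares of all genes given for that scale (14.3% higher and 15.6% lower in JNKΔhepa mice, 13.6% and 14.8% in WT mice) are those to read the counts against.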

How the data were processed

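RNA was measured on 12 one-colour arrays, 1 per sample; per the labels' protocols RNA integrity numbers were above 8 and cDNA was made with a whole-transcript kit. The deposited values are log2 intensities per probe set, made by the authors with RMA, per the submitters' processing notes (no version given there). Of 35556 probe sets 21218 carry 1 gene symbol in the platform annotation, 1881 carry several and were not used, and the brightest stood for each of 18820 genes. Of the 31 genes, Dnajc3 and Sec61b had several probe sets, and all readings of the 31 lay above their array's median.

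Groups and replicate numbers come from the labels. All 12 arrays were fitted by limma 3.58.1 (lmFit and eBayes, R 4.3.3, statmod 1.5.0) with 1 coefficient per group, and p-values were adjusted by Benjamini-Hochberg over all genes with a threshold of 0.05. Genotype and interaction were tested on the deposited values, tissue on values quantile-normalised over all 12 arrays. The fit was tested on simulated data for genotype in liver. Of 67 genes given a log2 change of 0.5, 44.8% passed, against 89.6% of 67 at 1 and 100% of 66 at 2. A change of 0.5 or less can thus easily go unseen. Of the 163 genes that passed, 7 had been given no change. The simulated noise was normal with 1 spread per gene over all groups. These shares therefore do not cover genes whose spread differs between groups, such as Hyou1, or the comparison in hepatocytes. Fold changes are 2 to the power of the log2 difference, and the 3 arrays of a group limit the precision. Values per array were given for Atf6, Ern1, Eif2ak3, Xbp1, Hspa5, genes that passed and, where none did, up to 5 with the smallest p; from each other list up to 3 of the genes with the smallest p among those that passed could be named. Other genes named with values were chosen after their values were seen. The members and lists were chosen with earlier results of these data known.

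Liver and hepatocytes of a mouse are paired by the mouse number in the labels; their deviations from the group means correlated at -0.01 to 0.10. The alternatives changed the scaling, the probe-set rule, a filter on dim probe sets, the prior, array weights, the block and the arrays in the fit. Promoter sequences and start sites are RefSeq's (GRCm38.p6) and were searched in Python 3.11.15. Replicates are separate mice by their numbers in the labels.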

Additional observations from a re-analysis of the deposited data

How the results depend on the processing

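Of the 31 genes, 0 passed for genotype in liver, except under array weights (1), on the 6 liver arrays alone (1) and, chosen after seeing the data, on all arrays except JNKΔhepa hepatocyte replicate 1 (1), each time Hyou1. In hepatocytes 2 passed (Hyou1 and Derl3) on the hepatocyte arrays without JNKΔhepa replicate 1, also chosen after seeing the data, and leaving out single arrays gave 0 to 3 in hepatocytes (3 without JNKΔhepa replicate 1, 0 without each of the others) and 0 in liver; the interaction gave 0 throughout. For tissue, leaving out single arrays gave 8 to 12 genes in JNKΔhepa mice and 4 to 7 in WT mice: the calls of Herpud1, Manf and Calr in JNKΔhepa mice and of Pdia6, Sdf2l1 and Calr in WT mice were lost without 1 or more single arrays (WT mice gave 4 without liver replicate 2 and without hepatocyte replicate 2). The values as deposited gave 16 genes in JNKΔhepa mice and 16 in WT mice, and centring on the median gave 26 and 23. Both scalings turned the sign of tissue differences, past the threshold or not. As deposited it turned in 16 genes in JNKΔhepa mice, namely Hspa5 (-0.028), Ern1 (-0.36), Dnajb9 (-0.52), Dnajb11 (-0.11), Dnajc3 (-0.16), Hsp90b1 (-0.17), P4hb (-0.13), Calr (-0.072), Canx (-0.20), Edem1 (-0.44), Edem2 (-0.36), Syvn1 (-0.32), Derl2 (-0.31), Sec61b (-0.11), Ssr1 (-0.28) and Sec24d (-0.43), and in 23 in WT mice, namely Hspa5 (-0.11), Ern1 (-0.42), Dnajb9 (-0.19), Dnajb11 (-0.13), Dnajc3 (-0.33), Dnajc10 (-0.69), Hsp90b1 (-0.33), Pdia3 (-0.26), Pdia6 (-0.15), P4hb (-0.17), Calr (-0.083), Canx (-0.32), Edem1 (-0.44), Edem2 (-0.41), Creld2 (-0.30), Manf (-0.14), Hyou1 (-0.34), Syvn1 (-0.34), Ero1b (-0.18), Derl2 (-0.35), Sec61b (-0.073), Ssr1 (-0.46) and Sec24d (-0.38). Centred on the median it turned in 4 genes in JNKΔhepa mice, namely Atf6 (0.15), Xbp1 (0.42), Sel1l (0.34) and Derl1 (0.15), and in 4 in WT mice, namely Atf6 (0.13), Eif2ak3 (0.12), Sel1l (0.25) and Derl1 (0.10).

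Over all genes, leaving out single arrays moved the count past the threshold in liver (174 with all arrays) to 80, 108 and 90 without JNKΔhepa replicate 1, 2 and 3 and to 81, 103 and 208 without WT replicate 1, 2 and 3. In hepatocytes the count (158 with all arrays) moved to 315, 63 and 61 without JNKΔhepa replicate 1, 2 and 3 and to 73, 387 and 80 without WT replicate 1, 2 and 3; array weights gave 408 in liver, and the 6 hepatocyte arrays alone gave 77. For tissue the count was 16282 in JNKΔhepa mice and 16231 in WT mice as deposited, 11365 and 10626 when centred, 3012 and 2935 with dim probe sets left out, and 5619 and 5336 on the common scale. Of those on the common scale 2683 were higher and 2936 lower in JNKΔhepa mice and 2554 higher and 2782 lower in WT mice, against 116 higher and 16166 lower, and 113 higher and 16118 lower, as deposited, and 9406 higher and 1959 lower, and 8774 higher and 1852 lower, when centred. The interaction gave 1 to 7 genes (2 with all arrays).

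With the mouse as a fixed replicate block 11 genes passed for tissue in JNKΔhepa mice and 7 in WT mice, and as a random block 11 and 7; in the genotype comparisons 0 passed with it. Replicate numbers across genotypes are shared numbers only (correlations of -0.12 to 0.11), and that number as a block gave 0 of the 31 genes and 131 genes of all in liver and 187 in hepatocytes. The causes of these changes were not tested. With 3 arrays a group the confidence intervals of Creld2 and Manf hold 0 in both genotype comparisons; arrays give no read depth, and all readings of the 31 genes lay above their array's median.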
